A study of Mus musculus with 2 samples.

Results

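Platelet-derived growth factors (PDGFs) and their receptors were described in wounded mouse skin lacking epidermal beta-catenin. The set was chosen by gene symbol and comprised 7 genes measured by 9 probes, of 17876 genes and 25697 probes on the array. It held the 4 ligand chains Pdgfa, Pdgfb, Pdgfc and Pdgfd, the receptor tyrosine kinases Pdgfra and Pdgfrb, and the receptor-like gene Pdgfrl. Both groups were C57BL6 mice aged 3 months on a low calcium diet. Knockout mice carried floxed beta-catenin alleles (b-catenin fl/fl) with Cre driven by keratin 14, so that the deletion is directed to keratinocytes and leaves the gene in fibroblasts, vessels and blood cells. Control mice were littermates with the floxed alleles and no Cre. Each mouse received 2 full-thickness back wounds with a 6-mm punch, and the wounds were cut out 3 days later with an 8-mm punch, together with their edges. RNA of 3 mice was pooled for each sample. There was 1 knockout array and 1 control array, so no difference below has an error estimate or a test, and none can be attributed to genotype rather than to the mice or the array.

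PDGFs are dimeric growth factors that act on cells of mesenchymal origin. Dimers of the A and B chains are secreted active, whereas the C and D chains carry a CUB domain that extracellular proteases remove before they can bind. Pdgfra binds the A, B and C chains, and Pdgfrb binds the B and D chains. In skin wounds platelets, macrophages, endothelium and keratinocytes are known sources of the ligands, and fibroblasts, pericytes and smooth muscle cells carry the receptors.

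The promoters of the genes that read lower in the knockout array after normalization, Pdgfc and Pdgfra, are shown as the 250 bases before the annotated start of transcription, 5′ to 3′ on the gene's strand (RefSeq, GRCm38.p6). Entries were given for 4 of the 7 genes. They lie at chr3:81036166-81036415, plus strand, for Pdgfc and at chr5:75152001-75152250, plus strand, for Pdgfra. Capitals mark CTTTG or its reverse complement CAAAG, the core of the sites bound by the TCF/LEF partners of beta-catenin.
Pdgfc: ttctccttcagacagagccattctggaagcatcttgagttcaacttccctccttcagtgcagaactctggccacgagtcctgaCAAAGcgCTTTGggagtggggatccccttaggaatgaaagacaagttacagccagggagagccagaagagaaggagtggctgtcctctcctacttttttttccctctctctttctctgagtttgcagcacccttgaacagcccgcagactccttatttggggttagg
Pdgfra: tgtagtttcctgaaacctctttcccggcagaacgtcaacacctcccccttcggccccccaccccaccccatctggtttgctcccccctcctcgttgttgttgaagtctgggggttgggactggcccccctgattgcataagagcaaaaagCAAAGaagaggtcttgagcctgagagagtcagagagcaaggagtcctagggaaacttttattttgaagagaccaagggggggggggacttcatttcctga
The core occurred at 2 places before Pdgfc, on opposite strands, and at 1 place before Pdgfra. Of the other windows given, the core occurred at 1 place before Pdgfd, which was not detected, and at 0 places in both Pdgfa windows. The core is short, and 48.6% of 32851 mouse promoter windows of the same length hold it on one strand or the other. The share that holds it at 2 or more places was not computed, and a link of these sites to the readings was not tested. Longer words that contain the core were searched on both strands as well. CTTTGAT is held by 3.21% of all windows, CTTTGTT is held by 5.03%, CTTTGAA is held by 4.46% and CTTTGTA is held by 3.2%, and 14.8% hold at least 1 of these words. None of them is in any of these windows. The GC content was 50.8% for Pdgfc and 54.4% for Pdgfra, beside a median of 52.4% over all windows.

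A probe counted as detected where its raw intensity reached the level that fewer than 1% of negative controls reached, 177.9 on the knockout array and 181.8 on the control array. Intensities were background-corrected and quantile-normalized (neqc), and log2 folds are knockout over control. On each array 6 of the 9 PDGF probes were detected, and they were the same 6. They represent every gene of the set except Pdgfd. Levels of different probes are not comparable, so each probe was compared only with itself between arrays. The summed intensities given for marker lists are the exception, and the brightest probes weigh most in them.

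Of the 6 detected genes 4 read higher and 2 lower in the knockout array. Pdgfc alone passed 2-fold. It read lower, as did 0.607% of 9713 detected genes past that size, and none of the 6 was 2-fold higher, beside 0.597% of all detected genes. Past 1.5-fold Pdgfc was again the single gene that read lower, beside 4.48% of all detected genes, and none read higher, beside 3.52%. All 6 were detected on both arrays. With genes detected on 1 array set at their lower bound, the shares of all detected genes were 0.34% lower and 0.299% higher past 2-fold, and 3.23% lower and 2.37% higher past 1.5-fold. The median log2 fold of the 6 genes was 0.14, and that of all detected genes was 0.0039, with quartiles of -0.19 and 0.18.

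**Figure D1:**
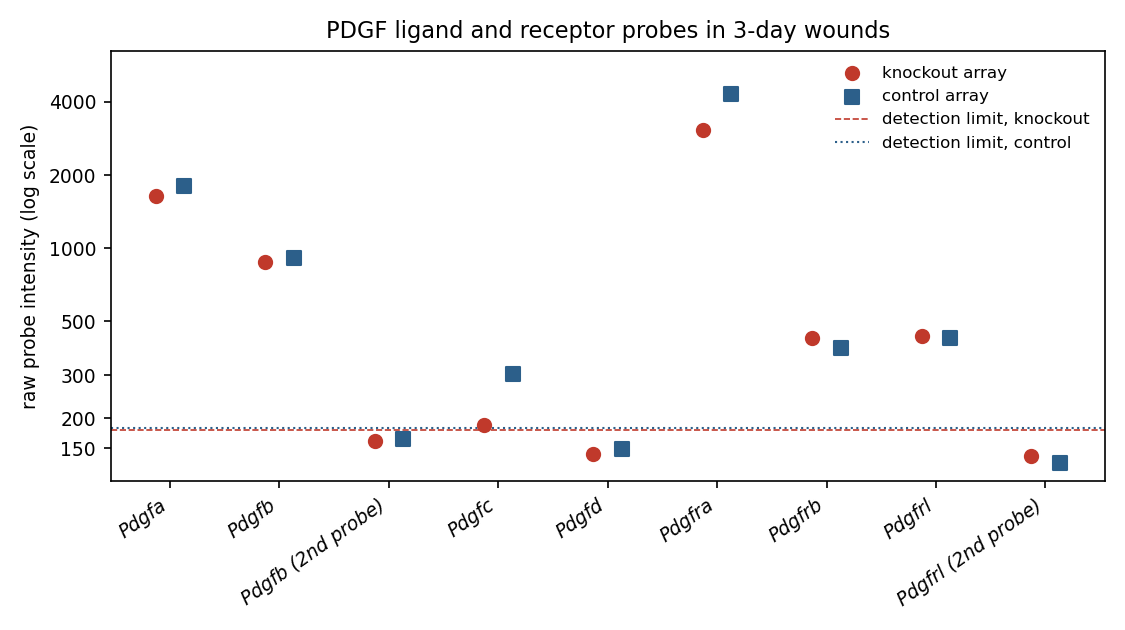
Raw intensity of each PDGF probe (log scale) on the knockout array (circles) and the control array (squares), 1 pooled sample each, with the detection limits as lines. Pdgfc lies just above the limit in the knockout (186.8) and clearly above it in the control (303.7), while Pdgfd and the second probes of Pdgfb and Pdgfrl lie below it on both arrays. Heights of different probes are not comparable.

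Among the ligands, Pdgfa, whose product signals through Pdgfra, had a raw intensity of 1641.8 in the knockout array and 1806.4 in the control array. After normalization it read 1648 and 1553 (log2 fold 0.09). Its log2 fold stood at percentile 62.2 of all detected genes, near the middle. Of 1413 detected genes whose mean intensity was within 1.5-fold of its own, 69.1% differed between the arrays by at least as much.

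Pdgfb, the chain that binds both receptors and recruits pericytes to vessels, was measured by 2 probes. The brighter one read 881.8 in the knockout array and 913.7 in the control array before normalization, and 822 and 720 after it (log2 fold 0.19). At least as large a difference was seen in 44.4% of the 1758 detected genes of similar intensity. The other probe, at 160.8 in the knockout array and 164.7 in the control array, was under the limits and gave no second reading of the gene.

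Pdgfc, a latent ligand of Pdgfra made by epithelia, muscle and mesenchymal cells, had a raw intensity of 186.8 in the knockout array and 303.7 in the control array. The knockout signal exceeded its detection limit by 8.9 units, and the control signal exceeded its limit by 121.9 units. Set against the background of each array, estimated from the negative control values as a median of 145.6 with an SD of 9.4 in the knockout and 145.9 with an SD of 11.3 in the control, the probe stood 4.38 SD above background in the knockout and 14.0 SD in the control. The detection p-value from the negative controls, given by order of intensity, was 0.0038 in the knockout, so a few negative controls read as high. The gene thus passed the detection limit on both arrays, in the knockout by little.

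After normalization Pdgfc read 59.4 in the knockout array and 161 in the control array, 2.71-fold lower (log2 fold -1.44). The log2 fold was the 11th lowest of 9713 detected genes. Of 1624 detected genes of similar intensity 7, Pdgfc included, differed by at least as much in either direction (0.431%). The SD of the log2 fold over those genes was 0.39.

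The size of the Pdgfc difference depended on how the arrays were processed. The authors' own normalization leaves the background in, and there the gene read 182.1 in the knockout array and 271.4 in the control array, 1.49-fold lower and so under both fold limits. The raw values differed 1.63-fold. Across 6 ways of processing the log2 fold ran from -1.52 to -0.58, and Pdgfc ranked between 10th and 126th lowest of 9713 genes. Its percentile ran from 0.0927 to 1.29, so it lay near the bottom of the distribution under each of them. Only 1 probe measures the gene, so no second probe bears on it.

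Pdgfd, a latent ligand of Pdgfrb, was not detected. Its probe read 141.6 in the knockout array and 148.5 in the control array, within 1 background SD of the background median on each, and no fold is given. Pdgfd RNA was not detectable at this signal, which does not show that it is absent.

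**Figure D2:**
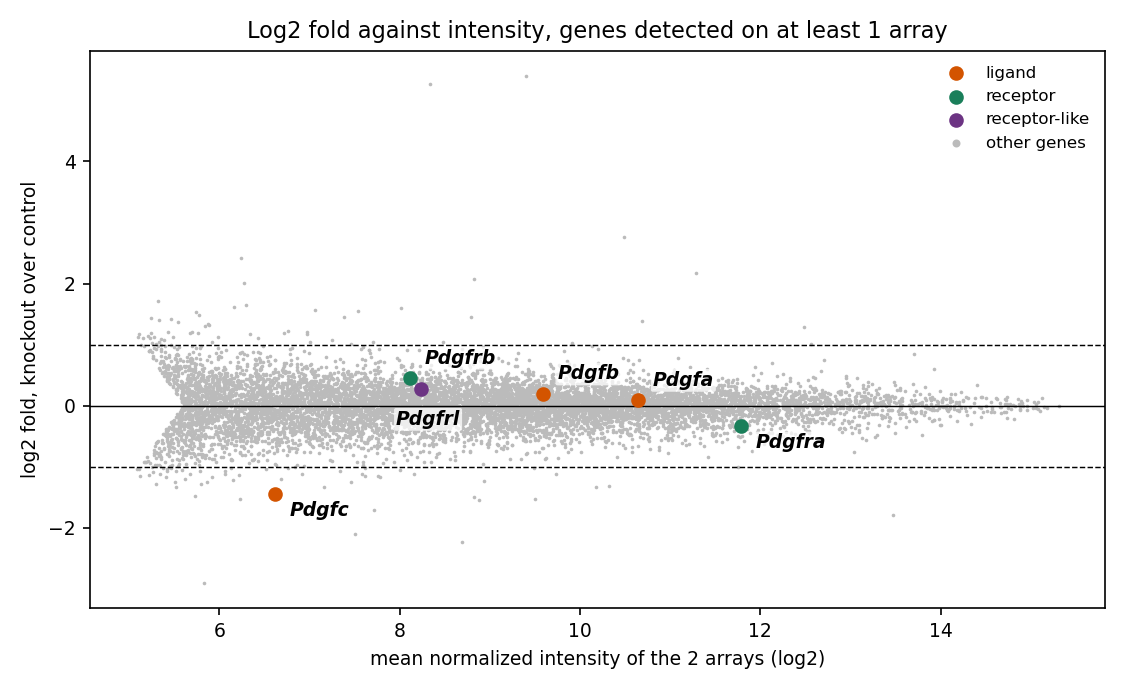
Log2 fold (knockout over control) against the mean normalized intensity of the 2 arrays (log2) for the 9713 genes detected on at least 1 array (grey), with the 6 detected PDGF genes coloured by role and 2-fold marked by dashed lines. Pdgfc (-1.44) lies at the lower edge of the cloud of genes, Pdgfra (-0.33) in its lower part and Pdgfrb (0.45) in its upper part.

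The receptor kinases read in opposite directions. Pdgfra, the receptor that marks dermal fibroblasts and their precursors, had a raw intensity of 3064.7 in the knockout array and 4330 in the control array. After normalization it read 3151 and 3952, 1.25-fold lower (log2 fold -0.33). The probe was bright, and in the authors' normalized intensities the fold was nearly the same, 1.23-fold lower (3160.8 in the knockout, 3896.4 in the control). At this intensity the arrays differed little for most genes, with an SD of the log2 fold of 0.23, and 12.4% of 862 genes differed by at least as much as Pdgfra. Its log2 fold lay between percentiles 6.07 and 16 of all detected genes over the 6 ways of processing.

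Pdgfrb, the receptor of pericytes, vascular smooth muscle and many fibroblasts, had a raw intensity of 428 in the knockout array and 387.1 in the control array. Normalized values were 323 and 237, 1.365-fold higher in the knockout (log2 fold 0.45), and 1.24-fold higher in the authors' intensities (420.9 in the knockout, 340 in the control). It was the only detected gene of the set besides Pdgfrl whose raw signal was the higher one in the knockout array. Among 1718 genes of similar intensity 13.8% differed by at least as much, and over the 6 ways of processing the percentile ran from 92.3 to 95.2.

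The log2 fold of Pdgfrb exceeded that of Pdgfra by 0.78, a 1.71-fold shift in their ratio between the arrays, and by 0.61 to 0.78 over the 6 ways of processing. With 1 array per group the error of this difference is unknown.

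Pdgfrl, which encodes a secreted protein resembling the ligand-binding part of the receptors, was measured by 2 probes. The brighter one read 434.6 in the knockout array and 428.8 in the control array, or 330 and 275 after normalization (log2 fold 0.27). Of 1723 genes of similar intensity 35.4% differed by at least as much. The other probe was not detected, at 139.2 in the knockout array and 130.2 in the control array.

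Part of these directions came from the scaling of the arrays. With raw intensities the median log2 fold of all detected genes was -0.14, and with median scaling it was -0.10. On those scales Pdgfa read -0.14 and -0.05, and Pdgfb -0.05 and 0.04. Relative to the median of all detected genes no member changed direction over the 6 ways of processing. Pdgfa then lay between 0.0041 and 0.08, Pdgfb between 0.09 and 0.19, Pdgfrl between 0.16 and 0.26, and Pdgfrb between 0.29 and 0.45. Pdgfra lay between -0.36 and -0.31 and Pdgfc between -1.44 and -0.56.

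**Figure D3:**
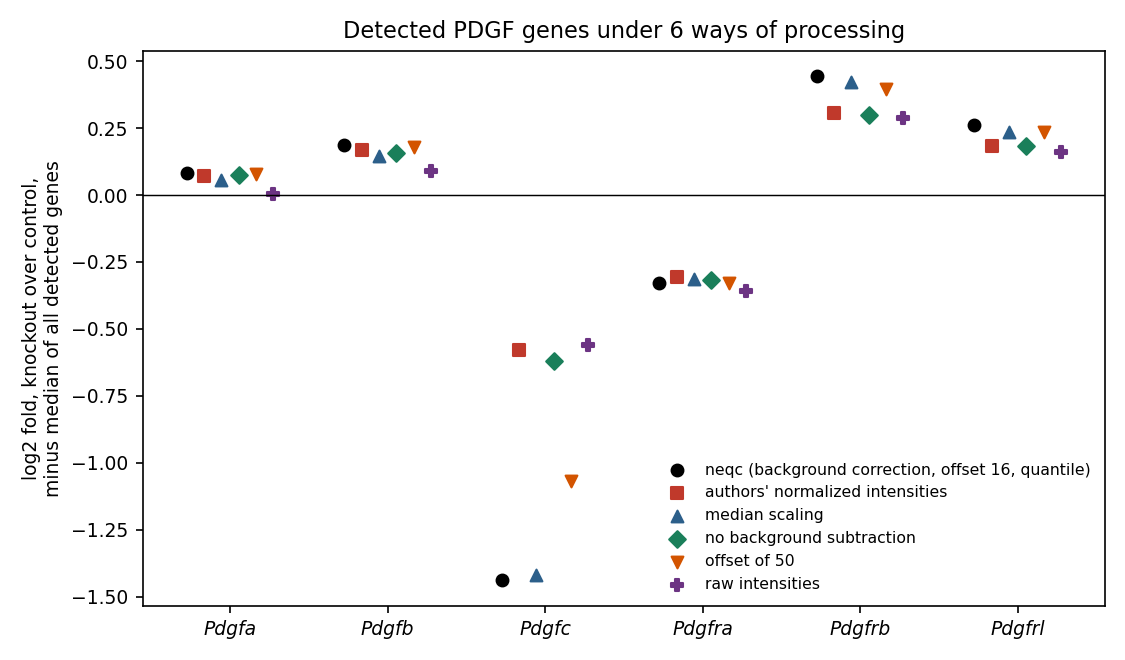
Log2 fold (knockout over control) of each detected PDGF gene minus the median of all detected genes, under 6 ways of processing the same 2 arrays (symbols). Pdgfra stays between -0.36 and -0.31, whereas Pdgfc spreads from -1.44 to -0.56 and is nearer to 0 where the background is kept.

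The 3 genes most like Pdgfc were taken from 1614 genes of similar intensity detected on both arrays, by closeness of log2 fold. They were Rgs1 (-1.34), Xcl1 (-1.20) and Lgr5 (-1.14), at distances of 0.10, 0.24 and 0.30 from Pdgfc. Raw intensities in the knockout and control arrays were 214.2 and 376.1 for Rgs1, 194.4 and 298.3 for Xcl1, and 178.8 and 250 for Lgr5. All 3 were dim in the knockout array, as Pdgfc was, and Lgr5 lay just above the detection limit of 177.9. With the background kept, in the authors' intensities, Rgs1 read 1.59-fold lower, Xcl1 1.41-fold and Lgr5 1.30-fold. A pattern over 2 arrays is a single difference, so likeness here means no more than a similar fold at a similar intensity.

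Of 6 listed proteases that activate PDGF chains 4 were on the array and all 4 were detected. Their median log2 fold was 0.10, or 0.04 with the gene detected on 1 array at its bound, and none passed 1.5-fold on its brightest probe. With the mean over detected probes the median was 0.44. Plat, tissue plasminogen activator, which cleaves the C chain, was detected in the knockout array only (179.3, against 169 in the control), and its lower bound was 1.05-fold higher. Plau, urokinase, which cleaves the D chain, read 428 in the knockout and 478 in the control after normalization (log2 fold -0.16). St14, matriptase, read 0.17 on its brighter probe and 0.68 on the other. Furin, which processes the A and B chain precursors, read 0.02 on its brightest probe and 1.11 on a dimmer one, so its probes disagreed.

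Of the extracellular and membrane regulators of PDGF, 5 of 6 detected genes lay below 0, where 49.3% of all detected genes did. None passed 1.5-fold. The median was -0.09, between the quartiles of all detected genes (-0.19 and 0.18), and it was -0.05 with the mean over detected probes. The matrix protein Sparc, which binds PDGF, read 25030 in the knockout and 27180 in the control (log2 fold -0.12, with 0.24 on its other probe). The co-receptor Nrp1 read -0.16 and -0.44 on its 2 probes. The integrin subunit Itgav stood at -0.30 and Thbs1, thrombospondin, at -0.07. Itgb3 was not detected.

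Signal transducers that bind the activated receptors or act next in line had a median of -0.08 over 20 detected of 28 genes, which was 0.06 with the mean over detected probes and -0.0037 with no detection filter. Of the 20 genes 11 lay below 0. With the bounds used 1, Pik3r1, was past 1.5-fold on the lower side, beside 3.23% of all detected genes. None was past it on the higher side, beside 2.37%. The regulatory subunit of phosphoinositide 3-kinase, Pik3r1, had a raw intensity of 1508.2 in the knockout array and 2691.1 in the control array, with log2 folds of -0.68 and -0.61 on its 2 probes. The catalytic subunit Pik3ca stood at -0.51, near the detection limit, and the Ras GTPase-activating protein Rasa1 at -0.48 (1320 in the knockout, 2088.3 in the control, raw). The Src-family kinase Fyn was detected in the control only, with a lower bound of 1.09-fold lower. Grb2, Sos1, Plcg1 and 5 others were not detected.

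Negative regulators of receptor signalling had 6 of 12 genes detected, 4 of them below 0. The median was -0.15, which was -0.05 with the gene detected on 1 array at its bound and 0.0069 with the mean over detected probes, and none was past 1.5-fold with the bound used. The phosphatase Ptpn1 read 172 in the knockout array and 126 in the control array (log2 fold 0.45). Dusp6, which dephosphorylates ERK, read -0.30 on its brighter probe and 0.26 on the other. Spry4 was detected in the control only, with a lower bound of 1.03-fold lower.

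Genes known to be induced by PDGF in cultured fibroblasts stood lower in the knockout array more often than not. Of 17 detected genes 13 lay below 0, where 49.3% of all detected genes did. On the lower side 3 were past 1.5-fold, beside 4.48% of all detected genes. None was past it on the higher side, beside 3.52%. The median was -0.31, or -0.15 in the authors' intensities. The immediate-early transcription factors Fosb (382.9 in the knockout, 1002 in the control, raw, log2 fold -1.55) and Fos (2385.3 in the knockout, 5327.1 in the control, log2 fold -1.01) were the lowest. Chemokines followed, with Ccl7 at -0.76 and Cxcl1 at -0.51. Egr1 stood at -0.37, the hyaluronan synthase Has2 at -0.31 and Ccn2 at -0.38, while Jun read 0.39 and Odc1 0.04; these 5 were chosen after their values were seen. Many stimuli other than PDGF induce these genes. Macrophage markers were also lower in the same array. The part of other stimuli and of macrophages in these differences was not tested.

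The related class III receptor kinases and their ligands had 3 of 6 measured genes detected, all below 0 (Csf1r -0.15, Csf1 -0.04 and Il34 -0.42) with a median of -0.15. Among all detected genes 49.3% lay below 0. Flt3, Flt3l and Kitl were not detected.

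**Figure D4:**
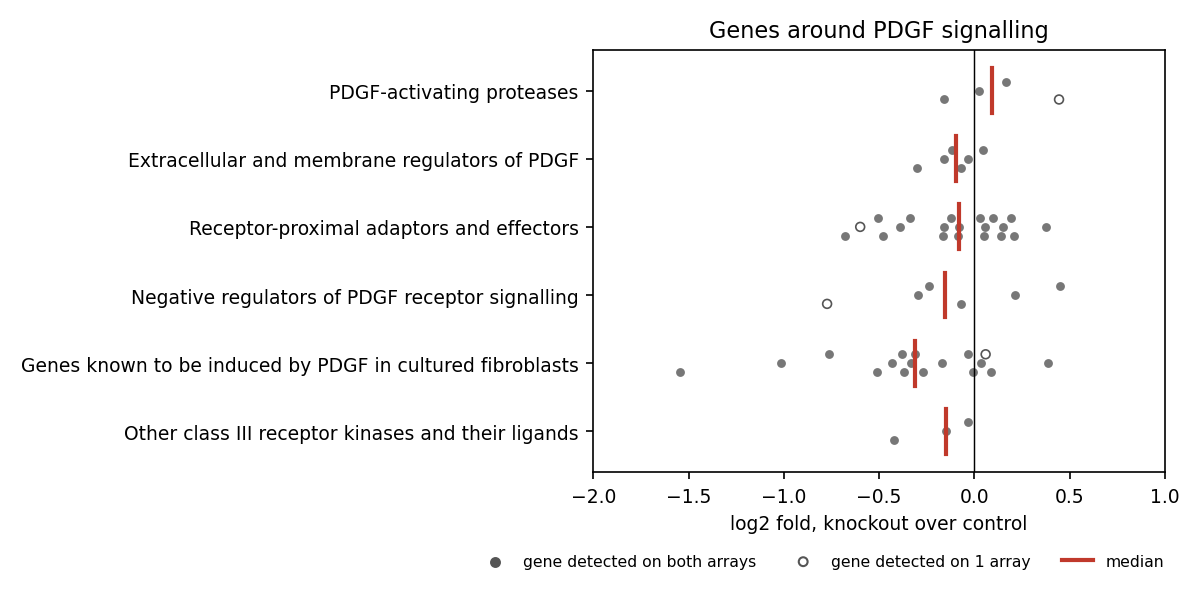
Log2 fold (knockout over control) of each detected gene in 6 lists around PDGF signalling, with filled points for genes detected on both arrays, open points for genes detected on 1 array and red bars for list medians. The genes known to be induced by PDGF lie furthest to the left, with a median of -0.31, and the other medians lie between -0.15 and 0.10.

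Markers of the cells that carry the receptors or make the ligands were set beside the members. Since these are whole-tissue samples, fewer cells of a type and less RNA per cell cannot be told apart. Fibroblast markers, from the main cells that carry Pdgfra, did not move one way, with 6 of 10 detected genes above 0 and a median of 0.05. Their summed normalized intensity was 58539 in the knockout array and 61958 in the control array. The collagen Col1a2 (0.27) and the protease Fap (0.70) were higher, and the proteoglycan Lum (-0.53) and dermatopontin, Dpt (-0.22), lower. Fap was dim, and it read 0.29 in the authors' intensities. Postn was not detected. Of 6 dermal papilla markers 2 were detected, both lower (Crabp1 -0.21, Rspo3 -0.25), and Sox2, Alx4, Corin and Prom1 were not detected. Rspo3 was at the detection limit in the knockout array (raw 177.9). In the authors' intensities Crabp1 read -0.165 and Rspo3 -0.06. Adipocyte markers were lower too, 5 of 6 below 0 (Lpl -0.52, Car3 -0.45), where 49.3% of all detected genes were. Their median was -0.35, or -0.17 in the authors' intensities. Their summed intensity was 15235 in the knockout and 20537 in the control. Plin1 (-0.33) and Lipe (-0.36 on its brighter probe, -0.77 on the other) were lower but near the detection limits. The part of these cells in the Pdgfra difference was not tested.

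Pericyte markers, which go with Pdgfrb, lay above 0 in 6 of 9 detected genes, with a median of 0.11 and a summed intensity of 15113 in the knockout array and 12752 in the control array. Desmin, Des, which skeletal muscle also makes, supplied most of that sum (13200 in the knockout, 10860 in the control). Higd1b (log2 fold 1.17), Kcnj8 (0.38) and Cox4i2 (0.30) were higher, all dim, whereas Rgs5 stood at 0.0038, Cspg4 at -0.15 and Notch3 at -0.37. In the authors' intensities, which keep the background, Higd1b read 0.41, Kcnj8 0.12 and Cox4i2 0.07. Rgs5, Cspg4 and Des were chosen after their values were seen. Smooth muscle markers lay above 0 in 4 of 4 detected genes (median 0.14, summed intensity 16327 in the knockout and 15264 in the control), with Acta2 at 0.10 and Lmod1 at 0.31. Cnn1 was not detected. Endothelial markers lay above 0 in 10 of 10 detected genes (median 0.19, summed intensity 9757 in the knockout and 8756 in the control), led by Cdh5 (0.67), Flt1 (0.47), Tie1 (0.38) and Pecam1 (0.30). The authors' intensities gave 0.40 for Cdh5, 0.41 for Flt1, 0.18 for Tie1 and 0.27 for Pecam1. Kdr was not detected. Of all detected genes 49.3% lay below 0. The part of vessel cells in the Pdgfrb and Pdgfb differences was not tested.

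Of the possible ligand sources, macrophage markers were lower in 10 of 11 detected genes, where 49.3% of all detected genes lay below 0. Their median was -0.21, with a summed intensity of 68675 in the knockout array and 81076 in the control array. Mertk (-0.80) and Mrc1 (-0.77) were the lowest, followed by C1qa (-0.35) and Fcgr1 (-0.27). Platelet markers did not move one way, with Ppbp at 0.72, Itga2b at 0.49, Pf4 at -0.32 and Gp1bb at -0.25, a median of 0.12 and a summed intensity of 2430 in the knockout and 2792 in the control. The authors' intensities gave 0.44 for Ppbp, 0.18 for Itga2b, -0.29 for Pf4 and -0.09 for Gp1bb. Keratinocyte markers had a median of 0.05, with 7 of 13 above 0 and a summed intensity of 155680 in the knockout and 149280 in the control. Among them Krt1 read 0.48, Trp63 -0.46 and Itga6, detected in the control only, at least 2.19-fold lower after background correction, with 1.31-fold in the authors' intensities, which keep the background. Schwann cell markers, 2 of 4 above 0, had a median of 0.06 with Mbp at 0.14 and Pmp22 at -0.50. The part of these cells in the Pdgfc difference was not tested.

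The scaling moved these small medians as it moved the members. Under median scaling, where all detected genes had a median of -0.10, the medians were -0.03 for fibroblast, -0.04 for pericyte, -0.03 for keratinocyte and -0.07 for Schwann cell markers. On raw intensities, where it was -0.14, they were -0.13, -0.12, -0.11 and -0.10, with -0.04 for endothelial, -0.0058 for smooth muscle, -0.03 for platelet markers and -0.09 for the proteases. Each of these stayed above the median of all detected genes on the same scale.

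**Figure D5:**
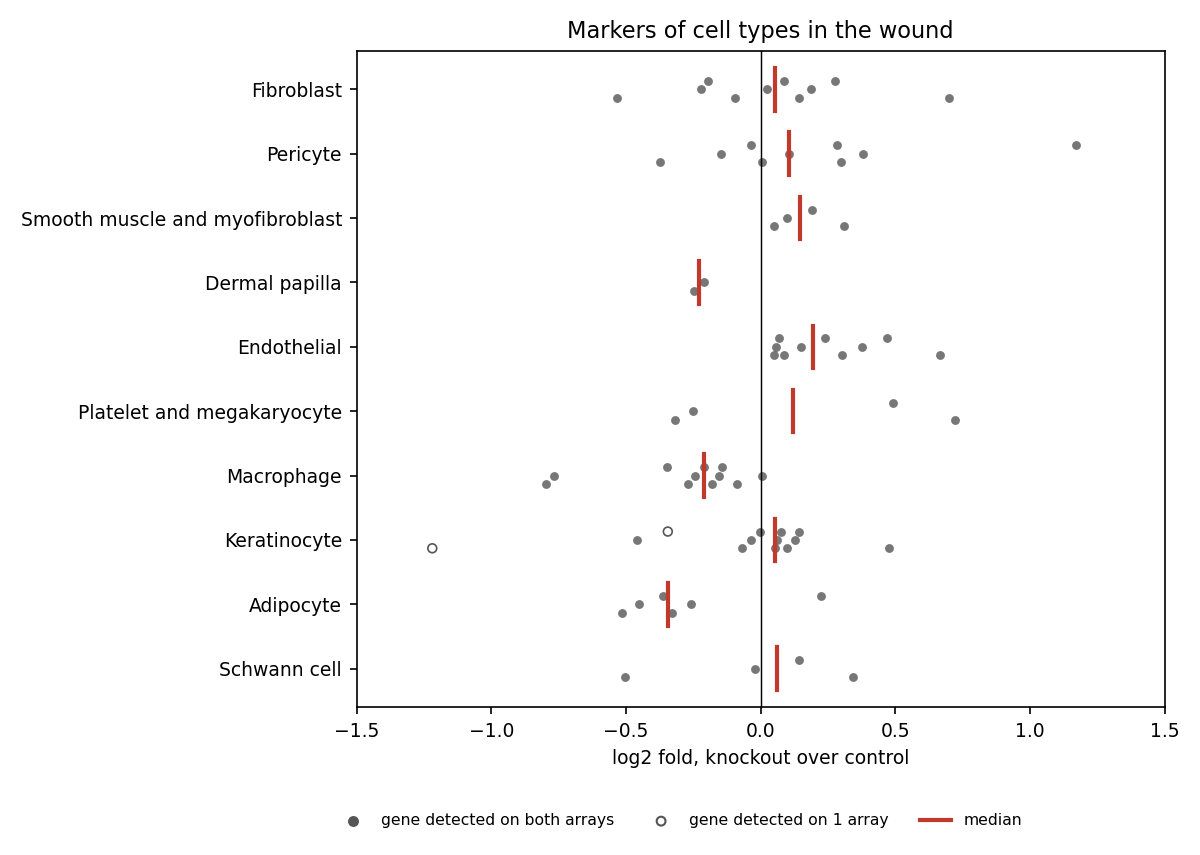
Log2 fold (knockout over control) of the detected markers of 10 cell types, with filled points for genes detected on both arrays, open points for genes detected on 1 array and red bars for medians. Endothelial markers all lie above 0 (median 0.19), macrophage markers lie below 0 in 10 of 11 genes (median -0.21), and fibroblast markers lie on both sides (median 0.05).

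The 2 pools also differed in measures outside the PDGF set. Raw medians were 173.5 in the knockout array and 177.3 in the control array, close to the detection limits. Of the skeletal muscle list 5 of 15 genes were at least 1.5-fold higher with the bound used, beside 2.37% of all detected genes. They were led by Myl2 (5.40), Myl3 (5.27), Tnnc1 (2.77) and Tnnt1 (2.17). The muscle median was 0.25, or 0.16 with the gene detected on 1 array at its bound. Red blood cell markers were lower in 3 of 4 genes (median -1.75), with Alas2 at -2.10, Hba-a1 at -1.79, Hbb-bt at -1.71 and Slc4a1 at 0.16. Of the Y-linked genes Ddx3y was lower (-2.24) and Eif2s3y was detected in the control only (at least 3.16-fold lower after background correction, 2.02-fold in the authors' intensities), while Xist read -0.05. The list median was -2.24, or -1.66 with Eif2s3y at its bound. The sample content and the sex of the mice therefore cannot be told apart from the knockout in any difference above. The targeted gene Ctnnb1 read 0.01 and -0.17 on its 2 probes, and where these probes lie with respect to the deletion was not examined, so they do not check the knockout.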

How the data were processed

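The members and gene lists were chosen with earlier results of these data known. Per the file headers, the authors deposited mean bead intensity per probe, non-normalized and normalized, from Illumina arrays read with GenomeStudio 2011.1 per the submitters' processing notes. Their method of normalization was not found in the labels or headers. The deposited detection p-values are out of row order (Spearman's rho with intensity -0.000406 in the knockout and 0.00244 in the control), so sorted p-values were given to sorted intensities of the same array. The limit of detection was the lowest intensity with a p-value under 0.01. Intensities were corrected with neqc of limma 3.58.1 (R 4.3.3, offset 16, log2), which gives both arrays 1 distribution, and whose offset shrinks folds of dim probes. The procedure was tested on simulated data, in which only probes brighter on average than Pdgfc were changed. That test therefore does not cover folds of dim probes such as Pdgfc. Symbols were updated through RefSeq (GRCm38.p6, names only), by accession for 23876 probes. A gene took its brightest probe. A gene named here and detected on 1 array is given a lower bound, with the other array's value raised to that array's lowest detected value where it was lower. Counts, medians and shares use the normalized values of such genes unless a bound is mentioned. Similar intensity means within 1.5-fold.

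With 1 array per group nothing was tested, and genes were counted at 1.5-fold and 2-fold. Named were all members with all probes, from each of 6 pathway and 13 marker lists up to 4 detected genes furthest from 0, the 3 genes most like the member with the largest fold, and Ctnnb1. A list is described by its counts and median. Precision is limited by the 2 arrays. Alternatives were the authors' normalized intensities, median scaling, no background subtraction, an offset of 50, raw intensities, detection at 5% or no filter, and the mean over probes.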

Additional observations from a re-analysis of the deposited data

How the results depend on the processing

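No paired analysis was possible because each group has 1 array, and no replicate could be left out. Pdgfc, at a log2 fold of -1.44, moved to -0.58 in the authors' normalized intensities, -0.62 without background subtraction and -0.70 on raw intensities. The count of PDGF genes at least 2-fold lower was then 0 in all 3, and the count at least 1.5-fold lower was 0 in the authors' intensities. These settings keep the background, and the cause of the moves was not tested. Over all genes, 342 were at least 1.5-fold higher in the knockout, against 55 in the authors' intensities, 49 without background subtraction, 144 with an offset of 50 and 20 on raw intensities. At least 1.5-fold lower were 435, against 75, 71 and 177 in the first 3 of these and 689 under median scaling. At least 2-fold higher were 58, against 9, 9, 16 and 7, and at least 2-fold lower 59, against 12, 10, 18 and 15, in the same order of settings. The red blood cell median of -1.75 moved to -1.12 in the authors' intensities and -1.13 without background subtraction. The sex-linked median of -2.24 moved to -1.01, -1.10 and -1.16 in the authors' intensities, without background subtraction and on raw intensities, and to -0.25 with no detection filter. The other 232 recomputed values moved by no more than 1.5-fold (log2 folds and medians) or 1.5 times (counts). Pdgfb and Pdgfrl kept their values in the mean over detected probes, since the second probe of each was not detected. The mean over all probes, chosen after the data were seen, gave 0.07 for Pdgfb and 0.19 for Pdgfrl. Signal near the detection limit bounds what can be said of Pdgfc in the knockout and of Pdgfd on both arrays.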
